A study of Mus musculus with 12 samples.

Results

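Immune checkpoint and adenosine pathway genes were followed through RNA-seq libraries of mouse mammary tumour cells. The genes were taken by name: Cd274, Pdcd1lg2, Cd276, Vtcn1, Cd47, Pvr, Lgals9, Entpd1 and Nt5e, which make 9 of the 52550 genes in the deposited files. The rule used no measured value, but earlier results of these data were known when the genes were proposed. Of these 9 genes, 7 passed the filter on low counts and were tested, and Pdcd1lg2 and Entpd1 did not pass.

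Checkpoint ligands are surface or secreted proteins by which a cell restrains immune cells that touch it. Cd274 (PD-L1) and Pdcd1lg2 (PD-L2) bind the T cell receptor PD-1, Cd276 (B7-H3) and Vtcn1 (B7-H4) are further members of the B7 family, Cd47 binds SIRPα on phagocytes, Pvr (CD155) binds TIGIT, CD96 and CD226, and Lgals9 encodes galectin-9, a ligand of TIM-3. The adenosine route runs in series on the cell surface: Entpd1 (CD39) takes extracellular ATP to AMP, and Nt5e (CD73) takes AMP to adenosine, which restrains T cells and natural killer cells. In tumours, interferon is known to raise several of these ligands, Cd274 and Lgals9 among them.

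The libraries came from 2 cell lines, D2A1 and D2.OR, which were derived from mouse mammary tumours that arose from D2 hyperplastic alveolar nodules. In mice, D2A1 is used as a model of outgrowth at metastatic sites and D2.OR as a model of dormancy. Each line was grown on plastic (2D) or on a bed of Matrigel with more Matrigel in the medium (3D). The 4 groups hold 3 replicates each, 12 libraries in all. RNA of a replicate was pooled from several wells, no immune cells were added, and no drug or genetic change set the groups apart. Each line stands for 1 tumour, so a difference between lines is a difference between these 2 lines. The replicate number is also the batch number in the labels, and each batch was run on its own sequencing lane. Nothing in the labels says that replicates were independent cultures, so p-values measure the spread between these libraries. Whether the 2D cells received the same medium as the 3D cells was not settled by the sources used here, so that medium and Matrigel cannot be told apart.

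Library totals ran from 47589611 to 73325069 expected counts. In the first 2 principal components of all tested genes, the lines lay apart along the first (70.3% of the variance), and along the second (10.2%) batch 1 had the highest value in every group. The batch 1 library of D2A1 in 3D stood farthest from its own group, with a second component of 34.61 against -58.03 and -65.57. Of 10 markers used to check for mammary epithelial cells, 6 to 8 were at 1 TPM (a level scaled for gene length and library size) or more in a D2.OR library and 2 to 3 in a D2A1 library, Vim included, which is known as a gene of mesenchymal cells. Krt19 and Krt5 did not exceed 0.14 and 0.03 TPM in any library of either line. The summed level was 938 to 3358 TPM in D2A1, of which Vim made up 733 to 3138 TPM, and 3710 to 6890 TPM in D2.OR, with 2831 to 5313 TPM of Vim. Without Vim, Krt18 and Krt8 the sum was at most 0.50 TPM in D2A1 and 14.3 to 194 TPM in D2.OR. The E-cadherin gene Cdh1 was at 22.2 to 183 TPM in 2D and 8.93 to 61.3 TPM in 3D for D2.OR, and at no more than 0.28 TPM in D2A1. The pan-leukocyte marker Ptprc did not exceed 0.05 TPM in any library, and 13 of 17 markers of immune, endothelial and fibroblast cells stayed below 1 TPM throughout. The summed level of these 17 markers was 26.5 to 61.6 TPM in D2A1 in 2D, 25.5 to 40.9 TPM in D2A1 in 3D, 120 to 210 TPM in D2.OR in 2D and 92.2 to 192 TPM in D2.OR in 3D. Nearly all of it came from Pdgfra, Col1a1 and Cd68, without which the sum was at most 1.49 TPM. In bulk libraries such as these, fewer cells with a transcript and less transcript per cell cannot be told apart.

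Cd274 and Lgals9 are shown with the sequence before their start sites, because several of the genes that followed them most closely are known to be interferon-induced. Sequences are from RefSeq (GRCm38.p6), 5′ to 3′ on the strand of the gene. Capitals mark matches to the interferon-stimulated response element, searched on both strands as GAAA, any 2 bases and GAAA again, so that it reads TTTC, 2 bases, TTTC on the other strand. The first line is the stretch before the farthest upstream Lgals9 start in the GENCODE annotation, at chr11:78984947-78985174 (minus strand), and stops 22 bases short of the RefSeq start at position 78984924. The second line is a site of Lgals9 shortly after the RefSeq start, with its match at chr11:78984900-78984909. The third line is the stretch before the RefSeq start of Cd274 at chr19:29367188-29367437 (plus strand), which held no match.
Lgals9 upstream: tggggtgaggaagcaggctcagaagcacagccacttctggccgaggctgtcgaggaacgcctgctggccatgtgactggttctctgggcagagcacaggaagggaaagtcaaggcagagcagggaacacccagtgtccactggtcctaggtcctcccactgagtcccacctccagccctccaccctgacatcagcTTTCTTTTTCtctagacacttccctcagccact
Lgals9 site after the start: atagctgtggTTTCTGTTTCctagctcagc
Cd274 upstream: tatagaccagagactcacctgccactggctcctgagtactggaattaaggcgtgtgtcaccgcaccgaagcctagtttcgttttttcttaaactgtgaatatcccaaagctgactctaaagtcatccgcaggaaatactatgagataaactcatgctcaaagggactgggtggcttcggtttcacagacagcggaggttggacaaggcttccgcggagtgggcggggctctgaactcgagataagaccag
Counted from the RefSeq start, the Lgals9 matches lay at positions -55 to -46 and 16 to 25. A window of 300 bases around the start (250 before and 50 after) was at hand for 8 of the 9 members, all but Pvr, and Lgals9 was the 1 member of these 8 with a match. The motif occurred in a window of 3.99% of 27025 genes. The other motifs searched, also on both strands, were chosen as known response elements. The gamma-interferon activated site (TTCNNNGAA, 9.55% of genes) and the cyclic AMP response element (TGACGTCA, 2.03% of genes) were in no window of the 8 members. The AP-1 motif (TGANTCA, 8.97% of genes) was in that of Vtcn1, and the core of the hypoxia response element (ACGTG, 21.8% of genes) in those of Cd274 and Cd47. A match describes letters in a window and says nothing of binding.

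**Figure D1:**
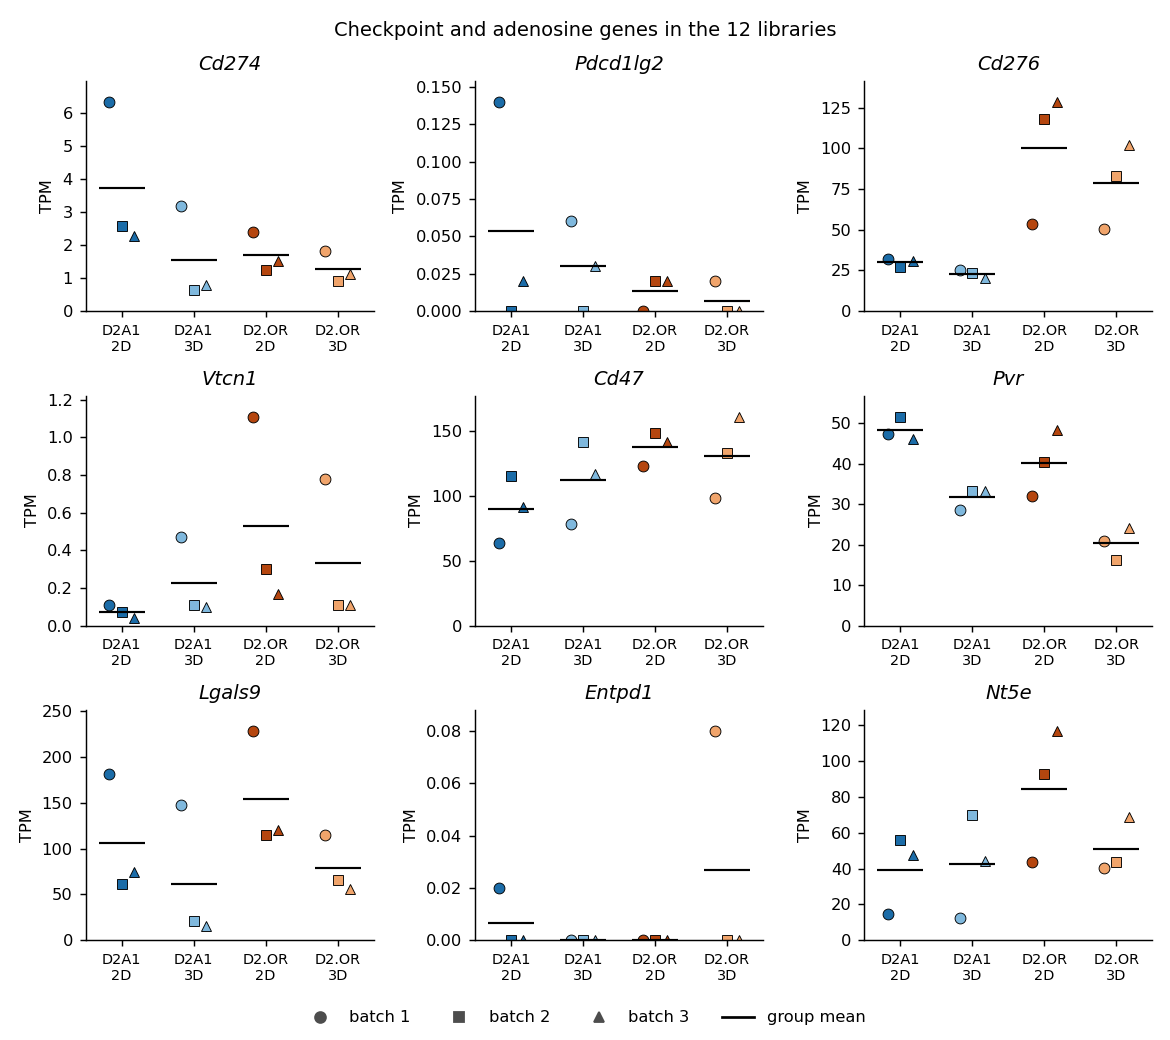
TPM (y axis, linear from 0, one scale per gene) of the 9 genes in the 12 libraries by group (x axis). Circles, squares and triangles are batches 1, 2 and 3, and lines are group means. Cd276 was higher in every D2.OR library than in any D2A1 library, Pvr was lower in 3D in each line, and Cd274, Vtcn1 and Lgals9 were highest in batch 1 of every group.

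By level, the members fell into 3 tiers. Lgals9, Cd47, Cd276, Nt5e and Pvr were abundant, with group means from 20.5 to 155 TPM. Cd274 was low, with group means from 1.28 to 3.74 TPM, and Vtcn1, Pdcd1lg2 and Entpd1 had group means below 1 TPM. In D2A1 in 2D the order of the means was Lgals9 (106 ± 65.6 TPM, SD, n = 3), Cd47 (90.3 ± 26.0), Pvr (48.4 ± 2.88), Nt5e (39.4 ± 22.0) and Cd276 (29.9 ± 2.63), and the libraries of each neighbouring pair overlapped except those of Cd47 and Pvr. In D2.OR in 2D the order was Lgals9 (155 ± 63.8), Cd47 (138 ± 13.1), Cd276 (100.2 ± 40.6), Nt5e (84.4 ± 37.1) and Pvr (40.3 ± 8.13), with overlap between all neighbours. The first place of Lgals9 rested on batch 1: in batches 2 and 3, Cd47 was above it in D2A1 in 2D (116 and 91.7 TPM against 61.4 and 74.5 TPM) and in D2.OR in 2D (148 and 142 TPM against 115 and 120 TPM). In those batches of D2.OR in 2D, Cd276 also lay above Lgals9, at 118 and 129 TPM. Relative to the genes above 1 TPM on average, Cd47 lay above 83.8% of them in D2A1 in 2D and above 90.8% in D2.OR in 2D, whereas Cd274 lay above 14.9% and 6.85%.

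The 4 comparisons asked how the lines differ in each culture and how each line differs between cultures. In 2D, 5 of the 7 tested members differed between D2.OR and D2A1 (edgeR, adjusted p under 0.05), 4 higher and 1 lower in D2.OR. The background was 49.8% of all 16823 genes tested, 25.4% higher and 24.4% lower. In 3D, 3 members differed, 2 higher and 1 lower, against a background of 53.8%, 27.7% higher and 26.1% lower. The members called thus made up 71.4% of those tested in 2D and 42.9% in 3D, above the share of all genes in 2D and below it in 3D. With culture, 1 member passed in D2A1, Cd274, which was lower (background 3.48%, with 2.12% lower), and 1 in D2.OR, Pvr, which was lower (background 1.62%, with 0.785% lower). No member passed the test of the interaction, that is, of a culture effect that differs between lines, whose background was 0.0238%. An unadjusted p under 0.05 in it was found by edgeR for 2 of the 7 members, against 17.8% of all genes, and DESeq2 called 1 (Vtcn1), against 5.96% of the genes it tested. The median log2-fold change of the 7 members was 0.84 and 0.45 for D2.OR against D2A1 in 2D and 3D, and -0.27 and -0.63 for 3D against 2D in D2A1 and D2.OR. Over all tested genes these medians were between -0.01 and 0.01.

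**Figure D2:**
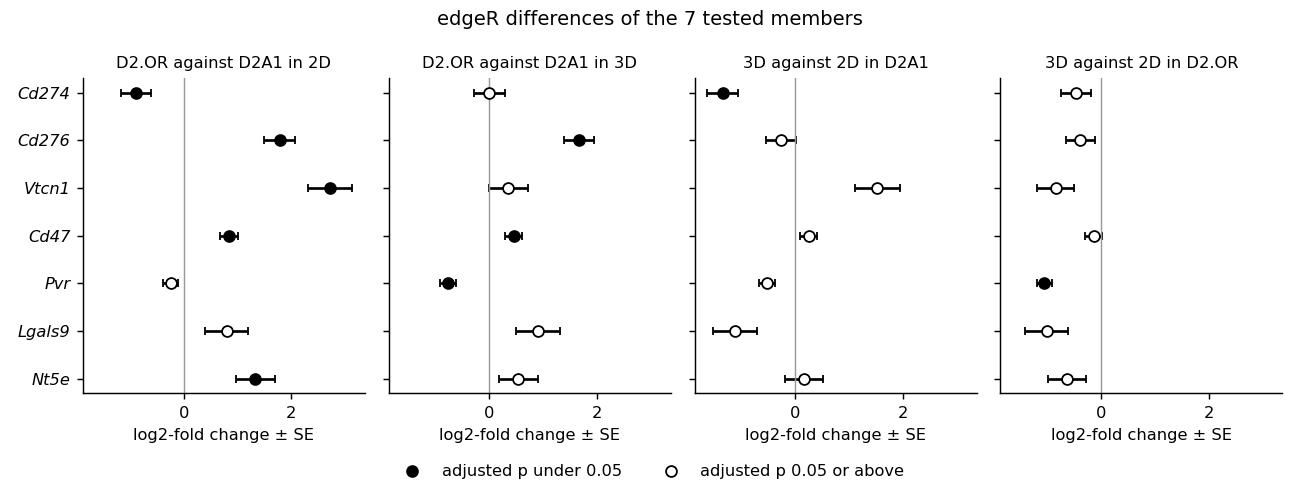
Log2-fold change with its standard error (x axis) of the 7 tested members (y axis) in the 4 comparisons, from the edgeR fit over all 12 libraries. Filled points have an adjusted p under 0.05, which held for 5 and 3 members between lines and for 1 and 1 between cultures. Over all tested genes the shares were 49.8% and 53.8% between lines and 3.48% and 1.62% between cultures.

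Cd274, the gene of the main PD-1 ligand, lies at chr19:29367455-29388095 on the plus strand (GRCm38), next to Pdcd1lg2. It was at 6.35, 2.57 and 2.29 TPM in D2A1 in 2D (batches 1, 2 and 3) and at 3.20, 0.64 and 0.79 TPM in D2A1 in 3D. It was at 2.40, 1.23 and 1.51 TPM in D2.OR in 2D and at 1.81, 0.92 and 1.12 TPM in D2.OR in 3D. D2A1 in 2D thus held the highest level within each batch, and every group was highest in batch 1. Between cultures, Cd274 fell in D2A1 in 3D, with a fitted log2 change of -1.35 ± 0.28 (SE, edgeR adjusted p = 0.0452) and -0.97, -1.83 and -1.37 within batches 1, 2 and 3. In D2.OR the value was -0.46 ± 0.28 (edgeR adjusted p = 0.426), lower in 3D in all 3 batches but by less than the test could separate from the spread. The difference of these 2 changes was 0.88 ± 0.40 (edgeR adjusted p = 0.284). Between lines in 2D, Cd274 was lower in D2.OR by 1.85-fold (log2-fold change -0.89 ± 0.28, edgeR adjusted p = 0.0257). In 3D the lines gave a log2-fold change of -0.01 ± 0.29 (edgeR adjusted p = 0.99), with -0.84 in batch 1 and 0.47 in both other batches. Libraries of the compared groups overlapped in TPM in all 4 comparisons. The fall in D2A1 passed the threshold in 12 of the 24 alternative settings and lost it without batch 2 (edgeR adjusted p = 0.516), without batch 3 (0.538), without the batch term (0.237) and without any single library of batches 2 and 3 (0.0686 to 0.224). The difference between lines in 2D lost it without the batch 1 or batch 2 library of D2A1 in 2D or of D2.OR in 2D (edgeR adjusted p from 0.0607 to 0.103), without all of batch 2 (0.148) or batch 3 (0.0643), and without the batch term (0.206).

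Pdcd1lg2, at chr19:29410919-29471157 on the plus strand, was close to absent from both lines. Its summed counts were 7 over the D2A1 2D libraries, 6 over the D2A1 3D libraries, 2 over the D2.OR 2D libraries and 1 over the D2.OR 3D libraries, and the highest level of any library was 0.14 TPM. No comparison can be drawn from such counts. Rgmb, which encodes a second binding partner of PD-L2, was measured at 25.1 to 37.8 TPM in D2A1 in 2D and 8.62 to 23.5 TPM in D2A1 in 3D. Its log2 change with 3D culture in D2A1 was -1.26 ± 0.22 (edgeR adjusted p = 0.0349), whereas it was -0.16 ± 0.21 in D2.OR (edgeR adjusted p = 0.743). The call in D2A1 was lost in 12 of 24 alternative settings, among them the leaving out of any single library of batches 2 and 3 (edgeR adjusted p of up to 0.538 over the settings).

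Cd276, a B7 family gene that many carcinomas express, lies at chr9:58524298-58555437 on the minus strand. It was at 31.9, 26.9 and 30.9 TPM in D2A1 in 2D and at 25.0, 23.5 and 20.5 TPM in D2A1 in 3D. It was at 53.7, 118 and 129 TPM in D2.OR in 2D and at 50.3, 82.9 and 102 TPM in D2.OR in 3D. Every D2.OR library was above every D2A1 library, and within D2.OR the batch 1 libraries were the lowest. D2.OR was 3.44-fold higher in 2D (log2-fold change 1.78 ± 0.28, edgeR adjusted p = 0.000864) and 3.17-fold higher in 3D (1.66 ± 0.28, edgeR adjusted p = 0.00108). The difference was smaller in batch 1, with log2-fold changes of 0.91 in 2D and 0.99 in 3D, than in batches 2 and 3, with 2.25 and 2.15 in 2D and 1.76 and 2.26 in 3D. Both calls held in all 24 alternative settings. With culture, the TPM of the D2A1 groups did not overlap, but the count-based change was -0.27 ± 0.27 (edgeR adjusted p = 0.53). In D2.OR it was -0.39 ± 0.27 (edgeR adjusted p = 0.497). A gene on the opposite strand, Gm10657, overlaps Cd276, and the sources do not say whether counting used the strand.

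Vtcn1, the gene of B7-H4, lies at chr3:100825459-100896922 on the plus strand. It was at 0.11, 0.07 and 0.04 TPM in D2A1 in 2D and at 0.47, 0.11 and 0.10 TPM in D2A1 in 3D. It was at 1.11, 0.30 and 0.17 TPM in D2.OR in 2D and at 0.78, 0.11 and 0.11 TPM in D2.OR in 3D. These are low levels, from 3 to 8 counts in a library of D2A1 in 2D and from 13 to 121 counts in D2.OR in 2D, and batch 1 was the highest in every group. In 2D, D2.OR was higher by a log2-fold change of 2.72 ± 0.41 (edgeR adjusted p = 0.00059), and no library of one line overlapped the other. In 3D the value was 0.35 ± 0.36 (edgeR adjusted p = 0.425). With culture, the change was 1.52 ± 0.42 in D2A1 (edgeR adjusted p = 0.0624) and -0.85 ± 0.34 in D2.OR (edgeR adjusted p = 0.245), and the sign within each line was the same in all 3 batches. DESeq2 called the change in D2A1 (1.54, adjusted p = 0.0364). The interaction was -2.37 ± 0.54 (edgeR adjusted p = 0.112), and -1.87 (adjusted p = 0.0478) without the batch 1 library of D2A1 in 2D.

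Non-overlap of TPM between groups was common among all tested genes. In 2D the lines did not overlap for Cd276, Vtcn1 and Cd47 (background 52.8%), and in 3D for Cd276 and Pvr (background 57.4%). Between cultures, the groups did not overlap for Cd276 and Pvr in D2A1 (background 24.8%) and for Lgals9 and Pvr in D2.OR (background 20.6%).

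Cd47, the signal by which a cell resists being eaten, lies at chr16:49855618-49915010 on the plus strand and was among the most abundant members in all libraries. It was at 63.7, 116 and 91.7 TPM in D2A1 in 2D and at 78.8, 141 and 117 TPM in D2A1 in 3D. It was at 123, 148 and 142 TPM in D2.OR in 2D and at 98.4, 133 and 161 TPM in D2.OR in 3D. The lowest library of each group was batch 1, and in 2D all D2.OR libraries lay above all D2A1 libraries. In 2D, D2.OR was 1.79-fold higher (log2-fold change 0.84 ± 0.16, edgeR adjusted p = 0.00261), a call that held in all 24 alternative settings. In 3D the groups overlapped and the difference was 1.37-fold (0.45 ± 0.16, edgeR adjusted p = 0.0417), with 0.62, 0.05 and 0.67 within batches 1, 2 and 3, and 14 of the 24 alternatives lost this call (adjusted p of up to 0.296). Among them were the leaving out of batch 1 or batch 3 of D2A1 in 3D (0.139 for each) or of D2.OR in 3D (0.109 and 0.18), and of batch 3 of D2A1 or D2.OR in 2D (0.0546 and 0.0587). Culture changed Cd47 little against the spread, with a log2-fold change of 0.25 ± 0.16 in D2A1 and -0.14 ± 0.16 in D2.OR (edgeR adjusted p = 0.32 and 0.693). Its receptor gene Sirpa is usually a gene of myeloid cells and neurons. In these libraries it was read at 6.94 to 13.8 TPM in D2A1 in 2D and 0.49 to 1.61 TPM in D2.OR in 2D. Sirpa was lower in D2.OR in both cultures, with log2-fold changes of -3.20 ± 0.35 in 2D and -2.60 ± 0.35 in 3D (edgeR adjusted p = 0.000101 and 0.000286). Qpctl, whose enzyme modifies the Cd47 protein so that SIRPα can bind it, was higher in D2.OR together with Cd47, by 1.11 ± 0.14 in 2D and 0.92 ± 0.14 in 3D on the log2 scale (edgeR adjusted p = 0.000219 and 0.000561).

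Pvr, a nectin-like adhesion gene and ligand of TIGIT, lies at chr7:19903578-19921160 on the minus strand. It was at 47.4, 51.7 and 46.3 TPM in D2A1 in 2D and at 28.7, 33.3 and 33.2 TPM in D2A1 in 3D. It was at 32.1, 40.4 and 48.3 TPM in D2.OR in 2D and at 21.0, 16.3 and 24.1 TPM in D2.OR in 3D. In each line the 3D libraries lay below all 2D libraries, and in 3D all D2.OR libraries lay below all D2A1 libraries. In D2.OR, Pvr fell with 3D culture by 2.07-fold (log2 change -1.05 ± 0.15, edgeR adjusted p = 0.0156), with -0.80, -1.28 and -1.08 within batches 1, 2 and 3. In D2A1 the change was -0.53 ± 0.15 (edgeR adjusted p = 0.0628), with -0.68, -0.55 and -0.33 within batches, and it was called by DESeq2 (-0.54, adjusted p = 0.0101) and by limma on log2(TPM + 0.1) (-0.61, adjusted p = 0.0497). The difference between the 2 changes was -0.52 ± 0.21 (edgeR adjusted p = 0.238), so the changes of the lines were not separated by the test. Between lines, Pvr was 1.70-fold lower in D2.OR in 3D (log2-fold change -0.77 ± 0.15, edgeR adjusted p = 0.00207), a call that held in all 24 alternative settings, while in 2D it differed by -0.24 ± 0.15 (edgeR adjusted p = 0.195), by -0.39 without the batch 3 library of D2A1 (0.0452) and by -0.41 with scaling by library total alone (0.0367). The fall in D2.OR kept its sign in all 24 settings and lost the threshold in 7, with an adjusted p of 0.482 without batch 2, 0.276 without batch 3, 0.0549 without the batch term, and 0.064 to 0.104 without any single D2.OR library of batches 2 and 3. A pseudogene and an antisense gene lie opposite Pvr, and their reads cannot be told apart if strand was not used.

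Of the partners of Pvr, Nectin2, a second TIGIT ligand, was at 53.8 ± 9.44 TPM in D2A1 in 2D and 41.4 ± 10.8 TPM in D2.OR in 2D (SD, n = 3). Its log2 change with 3D culture in D2.OR was -0.78 ± 0.19 (edgeR adjusted p = 0.0883, and 0.0168 without the batch 1 library of D2A1 in 3D). The receptor gene Tigit, known from T cells and natural killer cells, was read at 3.17 to 27.3 TPM in D2A1 in 2D and 4.23 to 23.3 TPM in D2A1 in 3D, and at no more than 1.94 TPM in D2.OR. The log2-fold change of Tigit for D2.OR against D2A1 was -3.20 ± 0.68 in 2D and -3.53 ± 0.65 in 3D (edgeR adjusted p = 0.00395 and 0.0017). The T cell marker Cd3e did not exceed 0.16 TPM and Nkg7, of natural killer cells, 0.06 TPM in any library.

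Lgals9, the gene of the sugar-binding protein galectin-9, lies at chr11:78962974-78984946 on the minus strand and had the widest spread of the abundant members. It was at 181, 61.4 and 74.5 TPM in D2A1 in 2D and at 147, 21.1 and 15.2 TPM in D2A1 in 3D. It was at 228, 115 and 120 TPM in D2.OR in 2D and at 115, 65.9 and 55.4 TPM in D2.OR in 3D. In each group the batch 1 library was the highest, and in D2A1 in 3D it stood far above the other libraries. All 6 pairs of same-batch libraries were lower in 3D than in 2D, with log2-fold changes of -0.27, -1.38 and -2.15 in D2A1 and -1.12, -0.83 and -1.13 in D2.OR. The fitted change was -1.12 ± 0.41 in D2A1 (edgeR adjusted p = 0.104) and -1.01 ± 0.40 in D2.OR (edgeR adjusted p = 0.232), and neither passed the threshold. Without batch 1 both passed, with -1.77 in D2A1 and -0.98 in D2.OR (edgeR adjusted p = 0.000701 and 0.0195). Leaving out the single batch 1 library of D2A1 in 3D gave -1.90 in D2A1 and -1.03 in D2.OR (edgeR adjusted p = 0.00168 and 0.0217). Calls over all genes rose in these fits too. For culture in D2A1 and D2.OR they were 586 and 273 with all libraries, 6120 and 1412 without batch 1, and 2208 and 522 without that single library. Between lines, D2.OR was higher by 0.80 ± 0.40 in 2D and 0.90 ± 0.41 in 3D on the log2 scale (edgeR adjusted p = 0.124 and 0.0901), and the difference in 3D was -0.39 in batch 1 but 1.60 and 1.84 in batches 2 and 3. Without batch 1 the differences were 0.92 and 1.71 (edgeR adjusted p = 0.00384 and 0.000238), and without the batch 1 library of D2A1 in 3D alone they were 0.76 and 1.63 (0.00681 and 0.000415). Without the batch 1 library of D2.OR in 3D the difference in 3D was 1.25 (0.0467). With all libraries, DESeq2 called the difference in 3D (0.93, adjusted p = 0.0339) and the fall in D2A1 (-1.14, adjusted p = 0.0228), and edgeR on the compared groups alone called the difference in 2D (0.79, adjusted p = 0.0124) and the fall in D2.OR (-1.01, adjusted p = 0.013). The TIM-3 gene Havcr2 was at 0.01 to 0.07 TPM in D2A1 in 2D, 0.14 to 0.75 TPM in D2A1 in 3D, 0.13 to 0.96 TPM in D2.OR in 2D and 0.56 to 3.66 TPM in D2.OR in 3D. It rose with 3D culture in D2A1 (log2-fold change 3.58 ± 0.54, edgeR adjusted p = 0.025), from 1 to 6 counts in a 2D library to 15 to 83 counts in a 3D library. This call was lost in 9 of 23 settings, including each one without a single D2A1 library of batch 2 or 3 (edgeR adjusted p of up to 0.533).

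**Figure D3:**
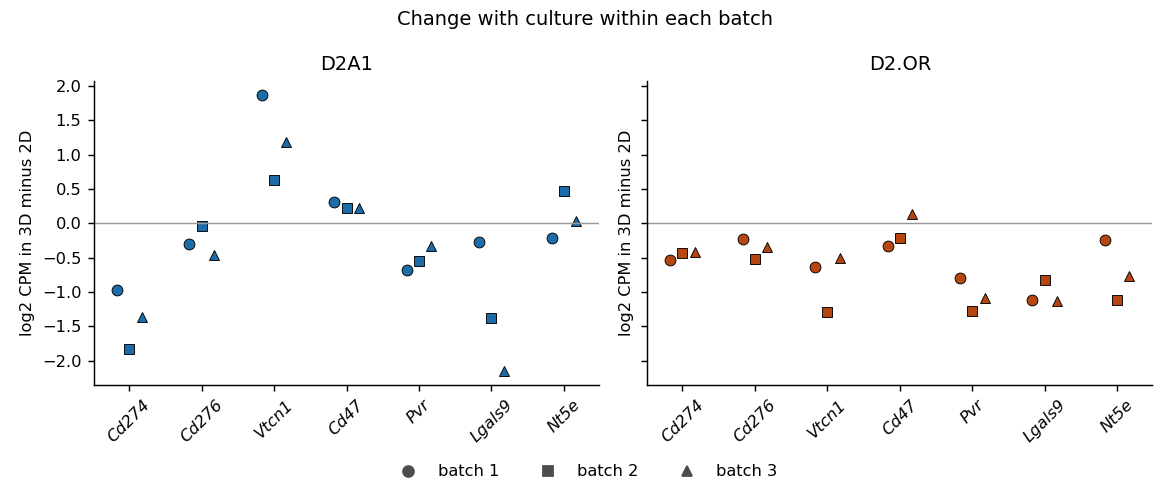
Log2 CPM in 3D minus 2D (y axis) of the 7 tested members (x axis) within each batch, in D2A1 (left) and D2.OR (right). Cd274, Cd276, Lgals9 and Pvr lay below 0 in all 6 pairs, and Vtcn1 lay above 0 in D2A1 and below 0 in D2.OR.

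The batches themselves moved several members. Of the 7 tested, 5 differed between batch 2 and batch 1 in the same edgeR fit (background 6.78% of all tested genes, 2.59% higher and 4.18% lower) and 4 between batch 3 and batch 1 (background 8.08%, with 3.03% higher and 5.05% lower). Cd274, Vtcn1 and Lgals9 were lower in batch 2 than in batch 1, by log2 values of -1.37, -1.92 and -1.57 (edgeR adjusted p = 0.016, 0.0121 and 0.0343). Nt5e and Cd47 were higher in batch 2, by 1.47 and 0.65 (edgeR adjusted p = 0.0305 and 0.0303). In batch 3 the same directions held against batch 1, with -1.19, -2.36, -1.63, 1.42 and 0.51, the last, of Cd47, short of the threshold (edgeR adjusted p = 0.0592). Cd276 and Pvr passed in neither. What set batch 1 apart was not tested, and each group had 1 library in each batch.

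Genes whose pattern over the 12 libraries lay closest to a member were found by the root mean square difference of log2 CPM, each gene centred on its own mean, among 13829 tested genes with a group mean of at least 1 TPM. Among the 3 closest to Lgals9, which itself varied with an SD of 1.16, were Parp9 and Oas1a, at 0.19 and 0.21. Both are known as interferon-induced genes. Parp9 was at 111, 21.1 and 16.1 TPM in D2A1 in 3D (batches 1, 2 and 3), which is the order of Lgals9 there. Closest to Cd274 (SD 0.89) were Parp12, Adar and Grn, at 0.36, 0.37 and 0.37, of which Parp12 and Adar are also known to respond to interferon. Cd276 (SD 0.99) lay closest to Il1rap, Ece1 and Ctsb, Nt5e (SD 0.99) to Il13ra1, Il4ra and Gprc5b, and Pvr (SD 0.55) to Foxf1, Zfp647 and Rhobtb1. Chd3 and Dpy19l1 were among the 3 closest to Cd47 (SD 0.48). For Vtcn1 (SD 1.31) the closest gene, Carns1, was still 0.61 away. The libraries share their batches and lines, so these values describe likeness only.

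**Figure D4:**
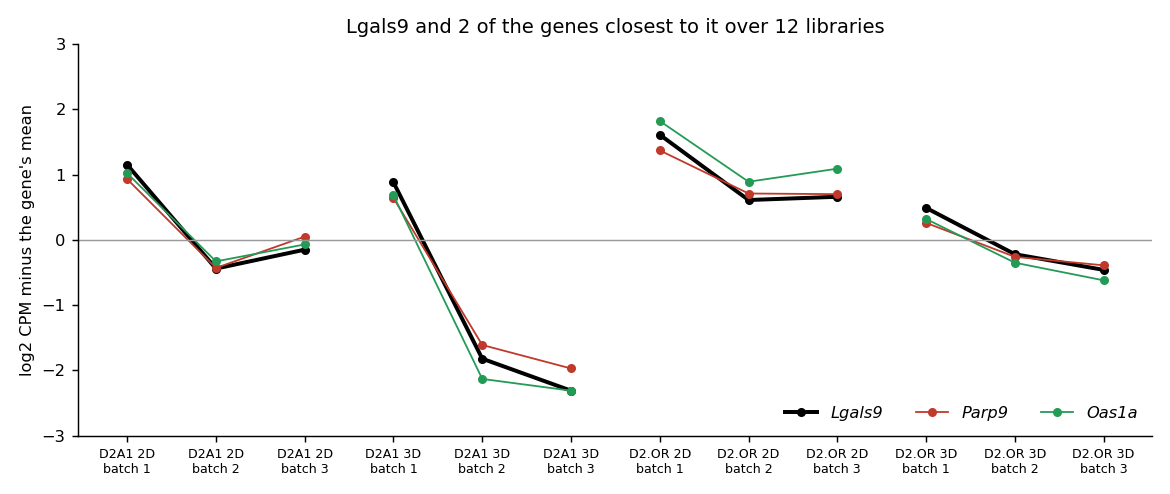
Log2 CPM minus the mean of the gene (y axis) of Lgals9, Parp9 and Oas1a in the 12 libraries, grouped by line and culture (x axis). Lines join the 3 batches of a group. All 3 genes were highest in batch 1 of each group, and their lowest values were in batches 2 and 3 of D2A1 in 3D.

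Among 14 genes of the interferon-gamma route to Cd274 (receptor, kinases, transcription factors and feedback genes), all were tested. In 2D, 6 were higher and 2 lower in D2.OR, and in 3D, 8 were higher and 3 lower, or 57.1% and 78.6% of the 14 beside 49.8% and 53.8% of all genes. The receptor gene Ifngr1 was higher in D2.OR by 1.75 ± 0.18 in 2D and 2.07 ± 0.18 in 3D on the log2 scale (edgeR adjusted p = 6.71e-05 and 2.48e-05), while Cd274 gave -0.89 and -0.01. With 3D culture, 2 of the 14 fell in D2A1 (14.3%, beside 2.12% of all genes lower) and 1 in D2.OR (7.14%, beside 0.785%). Stat2, a transcription factor of interferon signalling, fell in 3D by -1.15 ± 0.24 in D2A1 and -1.25 ± 0.24 in D2.OR (edgeR adjusted p = 0.0453 and 0.0431). Nlrc5, the activator of class I histocompatibility genes, fell in D2A1 by -1.11 ± 0.20 (edgeR adjusted p = 0.0359). In D2A1 both calls were lost without any single library of batches 2 and 3, and that of Stat2 also without batch 1 of D2.OR in 3D (13 of 24 settings for Stat2 and 12 for Nlrc5, edgeR adjusted p of up to 0.538). In D2.OR the call of Stat2 was lost in 15 settings, including those without any single D2.OR library or without the batch 2 library of D2A1 in 2D or 3D (edgeR adjusted p of up to 0.562). The class I gene H2-T23, whose product is a ligand of the NKG2A receptor, gave -2.09 ± 0.57 in D2A1 (edgeR adjusted p = 0.0623), with -0.04 in batch 1 and -2.79 and -3.68 in batches 2 and 3. It gained the call in 6 of 24 settings, among them -3.23 without batch 1 (edgeR adjusted p = 0.000184), -2.99 without the batch 1 library of D2A1 in 3D (0.00207) and -2.70 without that of D2A1 in 2D (0.00557).

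Nt5e, the gene of the enzyme that makes adenosine, lies at chr9:88327197-88372092 on the plus strand. It was at 14.5, 56.1 and 47.6 TPM in D2A1 in 2D and at 12.3, 70.1 and 44.4 TPM in D2A1 in 3D. It was at 43.9, 92.8 and 117 TPM in D2.OR in 2D and at 40.5, 43.6 and 69.0 TPM in D2.OR in 3D. The batch 1 library was the lowest of every group, and D2.OR in 2D was the highest group in each batch. In 2D, D2.OR was 2.52-fold higher (log2-fold change 1.33 ± 0.36, edgeR adjusted p = 0.0133), although the groups overlapped because of batch 1. In 3D the lines differed by 0.54 ± 0.36 (edgeR adjusted p = 0.238), with 1.69, -0.73 and 0.61 within batches 1, 2 and 3. Leaving out the batch 2 library of D2A1 or of D2.OR in 3D brought this to 0.96 and 0.95 (edgeR adjusted p = 0.0497 and 0.0434). Without all of batch 2 it was 1.16 (edgeR adjusted p = 0.0236), and without batch 1 it was -0.06 (0.869). The difference in 3D thus turned on which batches were kept. With culture, the values were 0.17 ± 0.35 in D2A1 and -0.63 ± 0.36 in D2.OR (edgeR adjusted p = 0.784 and 0.39). The call in 2D was lost without the batch term (adjusted p = 0.146), without batch 3 (0.122) and without the batch 1 library of D2A1 in 2D (0.0501).

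Entpd1, at chr19:40612366-40741602 on the plus strand, had 1 count in 1 library of D2A1 in 2D, 6 counts in 1 library of D2.OR in 3D and 0 counts in the others. A count of 0 at these depths allows up to 3 counts, so the transcript was near or below detection in both lines. Other genes of the route were measured. Of 20 further genes of extracellular ATP and adenosine metabolism, 18 were tested. In 2D, 9 were higher and 5 lower in D2.OR, and in 3D, 10 were higher and 2 lower, or 77.8% and 66.7% of those tested beside 49.8% and 53.8% of all genes. The related gene Entpd2, whose enzyme mainly takes ATP to ADP, was at 2.18 to 4.80 TPM in D2.OR in 2D and 4.90 to 11.6 TPM in D2.OR in 3D, against 0.07 to 0.16 TPM in D2A1. Its log2-fold change was 5.19 ± 0.33 in 2D and 5.98 ± 0.32 in 3D (edgeR adjusted p = 4.18e-06 and 1.56e-06). Entpd6 went the other way, with -1.64 ± 0.16 in 2D and -1.85 ± 0.16 in 3D (edgeR adjusted p = 4.72e-05 and 2.19e-05).

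Besides Nt5e, the phosphatases Alpl and Acpp can take AMP to adenosine. Alpl, tissue-nonspecific alkaline phosphatase, was at 2.67 to 4.73 TPM in D2.OR in 2D and 24.3 to 56.9 TPM in D2.OR in 3D, and at no more than 0.60 TPM in D2A1. It rose with 3D culture in D2.OR by 3.28 ± 0.43 on the log2 scale (edgeR adjusted p = 0.012), with 3.28, 3.42 and 3.09 within batches, while Nt5e in the same libraries gave -0.25, -1.12 and -0.76. The call of Alpl was lost in 7 of 24 settings, including each one without a single D2.OR library of batch 2 or 3 (edgeR adjusted p of up to 0.443). Acpp was lower in D2A1 in 3D by -2.30 ± 0.40 on the log2 scale (edgeR adjusted p = 0.0354), a call lost in 12 of 24 settings, including those without any single library of batches 2 and 3 other than batch 2 of D2.OR in 3D (up to 0.538). In D2.OR in 3D, Alpl (38.4 ± 16.7 TPM, SD, n = 3) was thus of the same order as Nt5e (51.0 ± 15.7 TPM), and their libraries overlapped. The transporter gene Slc29a1, which carries adenosine across the membrane, was at 489 to 843 TPM in D2.OR in 2D and 165 to 201 TPM in D2A1 in 2D (log2-fold change 1.90 ± 0.16, edgeR adjusted p = 1.94e-05). Of the adenosine receptors, Adora1 rose with 3D culture in D2A1 by 4.99 ± 0.70 (edgeR adjusted p = 0.0207), from 0.11 to 0.24 TPM in 2D to 0.82 to 6.74 TPM in 3D, and gave 2.89 ± 0.59 in D2.OR (edgeR adjusted p = 0.0505, and 0.0219 and 0.00915 without the batch 1 library of D2A1 in 2D or in 3D). The call in D2A1 was lost in 7 of 23 settings, including each one without a single D2A1 library of batch 2 or 3 (edgeR adjusted p of up to 0.538). The ADP receptor gene P2ry1 had 3 counts or fewer in each D2A1 library. In D2.OR its level was at least 54.3-fold higher in 2D and at least 149-fold higher in 3D, bounds set by 3 counts in each D2A1 library.

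**Figure D5:**
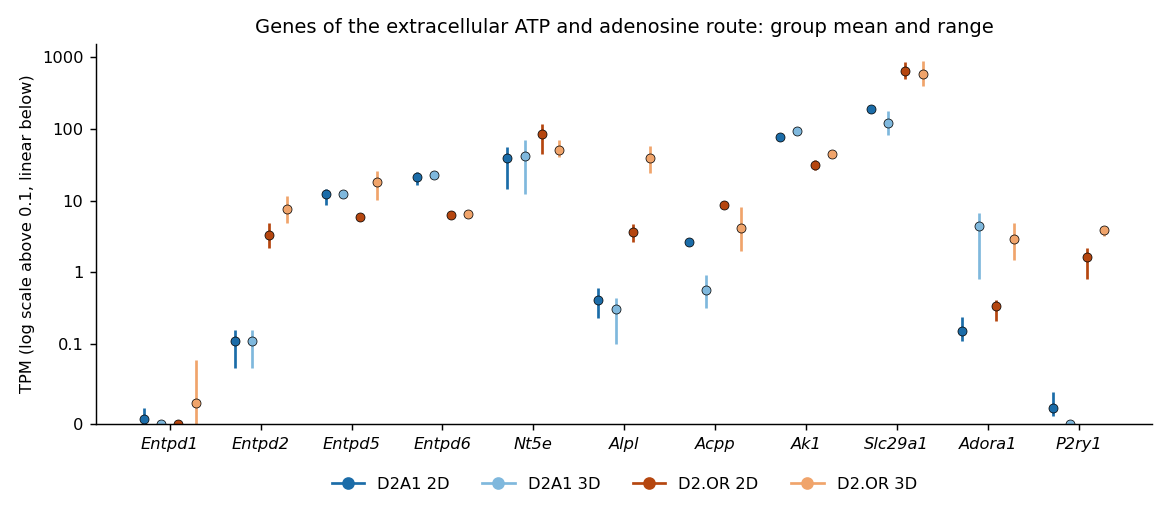
TPM (y axis, logarithmic above 0.1 and linear below) of genes of the extracellular ATP and adenosine route (x axis) in the 4 groups. Points are means of 3 libraries and bars run from the lowest to the highest library. Entpd1 lay at or near 0 in all groups, Nt5e between 12.3 and 117 TPM, and Alpl reached 24.3 to 56.9 TPM in D2.OR in 3D.

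The remaining checkpoint genes gave a context for the members. Of 26 further co-inhibitory and co-stimulatory ligands, 16 were tested, of which 7 were higher and 1 lower in D2.OR in 2D, and 8 were higher and 2 lower in 3D, or 50% and 62.5% beside the 49.8% and 53.8% of all genes. Cd200, whose product restrains myeloid cells, gave the widest difference of these, with 233 to 256 TPM in D2.OR in 2D against 0.12 to 0.40 TPM in D2A1 in 2D (log2-fold change 10.64 ± 0.26, edgeR adjusted p = 3.06e-08). Of 15 receptors of checkpoint ligands, 8 were tested, with 4 higher and 2 lower in D2.OR in 2D, 5 higher and 2 lower in 3D (75% and 87.5%), and 1 higher and 1 lower with 3D culture in D2A1 (25%, beside 3.48% of all genes). Of 13 genes for maturation and partners of checkpoint ligands, all were tested, with 7 higher in D2.OR in 2D and 7 in 3D (53.8% each). B3gnt3, a glycosyltransferase known to act on the Cd274 protein, was among them, at 26.7 to 38.1 TPM in D2.OR in 2D and no more than 0.64 TPM in D2A1. It fell with 3D culture in D2.OR by -1.65 ± 0.32 on the log2 scale (edgeR adjusted p = 0.0444), and this call was lost in 15 of 24 settings, including those without any single D2.OR library or any D2A1 library of batches 2 and 3 (up to 0.529).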

How the data were processed

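RNA-seq was measured in 12 libraries, 3 replicates of each cell line in each culture. Reads were trimmed by the authors with Trimmomatic 0.32, aligned with STAR 2.5.3 to GRCm38 and quantified with RSEM 1.3.0 (names and versions from the submitters' processing notes and the paper). The deposited expected counts, not whole for 10.7% to 11.8% of genes, were rounded. The deposited TPM values, scaled by the authors for gene length and library size, keep no depth. Deposited FPKM values and the trimming were not used or varied. Library totals (median 61747126) limit precision most for genes of few counts, and intervals were not drawn for single counts.

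edgeR 4.0.16 (R 4.3.3) fitted all 12 libraries by its quasi-likelihood test, with TMM, its filter on low counts (16823 of 52550 genes), 4 group terms and a batch block. Adjusted p-values are Benjamini-Hochberg over all genes tested, with a threshold of 0.05. Within-batch values are log2 CPM differences (prior count 2). The common coefficient of biological variation came to 21.2%. The fit was checked on simulated data. Numbers pair the libraries through the labelled batch: deviations from group means correlated at 0.0758 to 0.511 (median 0.267) over 18 same-number pairs, with a median of -0.195 over 36 other pairs. Deviations within a group cancel, so the values of the other pairs follow in part from those of the same-number pairs. Genes outside the members were named by rule: up to 3 per list and comparison with the lowest adjusted p, or 1 where none passed, at 1 TPM or more in a group, besides the markers and the 3 closest genes to each member. Not all genes so chosen are reported here. Alternatives were DESeq2 1.42.0, limma 3.58.1 on log2(TPM + 1) and log2(TPM + 0.1), other scalings and filters, no batch block, only the compared groups, and leaving out libraries. Promoter windows came from RefSeq. The members and gene lists were chosen with earlier results of these data known.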

Additional observations from a re-analysis of the deposited data

Results flagged for a closer look

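Vtcn1 moved with culture in opposite directions in the 2 lines in every batch, with log2 CPM changes (3D–2D) of 1.87, 0.64 and 1.18 in D2A1 and -0.64, -1.29 and -0.50 in D2.OR. Vtcn1 had only 3 to 8 counts in a library of D2A1 in 2D, and the share of all genes with such opposite changes is not given here. The interaction was -2.37 ± 0.54 and did not pass over all genes (edgeR adjusted p = 0.112), and DESeq2 gave an adjusted p of 0.0298. Among the epithelial markers, Krt8 gave 0.22, 0.01 and 0.34 in D2A1 and -2.04, -1.23 and -0.96 in D2.OR (interaction -1.52, edgeR adjusted p = 0.232). Epcam had 3 counts or fewer in each library of D2A1 in 2D, so that in D2A1 only a bound can be given: it was at least 2.81-fold higher in 3D, set by 3 counts in each 2D library. In D2.OR it gave -1.09, -0.45 and -0.04. The fitted interaction of Epcam (-2.80, edgeR adjusted p = 0.11) depends on how those low counts are handled and is no measure of size.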

How the results depend on the processing

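Over 24 alternative settings no fold change of a member that was called in either fit turned its sign, and 761 of the members' alternative values kept their side of the threshold, 43 lost it and 24 gained it. The calls of Cd47, Cd276 and Vtcn1 between lines in 2D, and of Cd276 and Pvr between lines in 3D, held in all settings that tested them; the filter of at least 10 counts in every library left Vtcn1 out. The number of members past the threshold was 5 for the lines in 2D, 3 for the lines in 3D, 1 for culture in each line and 0 for the interaction. Without the replicate block, so that libraries of one batch were no longer paired, it was 3 for the lines in 2D and 0 for culture in D2A1 and 0 in D2.OR. All genes gave 7391, 52 and 20 calls in that fit. By DESeq2 it was 4 for culture in D2A1 (Cd274, Vtcn1, Lgals9 and Pvr) and 1 for the interaction, where all genes gave 3581 and 944 calls. By limma on log2(TPM + 0.1) it was 2 for culture in D2A1, and with only the libraries of the groups compared it was 0 for culture in D2A1 and 2 in D2.OR. Over all genes these 3 fits called 1135, 15 and 809. Leaving out single libraries or batches gave 3 to 6 for the lines in 2D and 2 to 4 for the lines in 3D. It gave 0 to 2 for culture in D2A1, 0 to 2 for culture in D2.OR and 0 to 1 for the interaction. The counts over all genes moved as well and are given below. Cd274 passed the interaction without batch 1 (1.19, edgeR adjusted p = 0.0349). The cause of these changes was not tested, except that fits without a batch have fewer libraries.

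Over all genes, culture in D2A1 gave 586 calls by edgeR, 3581 by DESeq2 and 52 without the replicate block, culture in D2.OR gave 273, 1239 and 20, and the interaction gave 4, 944 and 0. The lines gave 8378 calls in 2D and 9044 in 3D, which fell to 4227 and 5273 without batch 2 and to 5400 and 5975 without batch 3, while single libraries left out gave 6486 to 8865 and 7286 to 10298. Calls for culture turned on single libraries. In D2A1 there were 5237 without the batch 1 library of D2A1 in 2D, 2208 without that of D2A1 in 3D, 21 without batch 3 of D2A1 in 2D, and 0 without batch 2 of D2A1 in 2D or batch 2 or 3 of D2A1 in 3D. In D2.OR the counts ran from 2 (without batch 2 of D2.OR in 3D) to 635 (without batch 1 of D2A1 in 2D), and for the interaction from 1 to 2509 (without batch 1 of D2A1 in 2D). Without all of batch 1 there were 6120, 1412 and 2999 calls for culture in D2A1, culture in D2.OR and the interaction, without batch 2 there were 0 for each, and without batch 3 there were 0, 1 and 0. Where edgeR called 0 genes, 920 to 3522 had an unadjusted p under 0.05. Among the other genes named, 154 alternative values lost the threshold and 60 gained it. The calls between lines of Sirpa, Qpctl, Tigit, Ifngr1, Entpd2, Entpd6, Slc29a1, Cd200 and B3gnt3 held in all settings that tested them. Vtcn1 rests on few counts, and Pdcd1lg2 and Entpd1 were too low to test.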
